A study of Mus musculus with 6 samples.

Results

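The genes described here make, degrade, bind and sense retinoic acid, and were chosen by name: the rows of the expression table whose mouse Ensembl identifier maps to Rdh10, Dhrs3, Aldh1a1, Aldh1a2, Aldh1a3, Cyp26b1, Crabp1, Rara, Rarb or Rarg. All 10 were found among 24749 genes in the table, and all 10 passed the filter on low values, a mean of at least 0.5 FPKM (fragments per kilobase of transcript, scaled to the library's mapped fragments) over the libraries. RNA was sequenced from whole dissected mouse embryonic kidneys at E15.5, an embryonic stage named in days after conception. The 3 knockout libraries came from Foxd1cre; Yapc/c;Tazc/c kidneys, in which Cre recombinase under the Foxd1 promoter acts on loxP-flanked alleles of Yap (Yap1) and Taz (Wwtr1). The 3 wild-type libraries came from Cre-negative kidneys, and the labels do not say whether those carried floxed alleles. Both groups were of mixed strain. Cre is driven in the stromal lineage, so the other cells of the organ keep both genes, and the values are those of the whole kidney. Fewer cells of a type and less RNA per cell cannot be told apart in such values. Nothing in the labels says whether libraries came from separate embryos or from pools, so p-values measure only how far these libraries lie apart, which may be technical.

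Retinoic acid is made from vitamin A in successive oxidations. RDH10 oxidises retinol to retinaldehyde, DHRS3 reduces retinaldehyde back to retinol, and the ALDH1A enzymes oxidise retinaldehyde to retinoic acid. CYP26 enzymes degrade it, CRABP proteins bind it in the cytosol, and the nuclear receptors RARA, RARB and RARG, paired with retinoid X receptors, bind DNA at repeated half-sites. In the embryonic kidney Aldh1a2 is known from stromal cells and Aldh1a3 from the ureteric bud and its branches, and retinoic acid is known to sustain expression of Ret, the receptor through which the ureteric bud branches.

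The deletion was checked first. Wwtr1 measured 13.5, 12.8 and 12.2 FPKM in knockout libraries, against 20.2, 17.7 and 18.5 FPKM in wild-type libraries (log2 change -0.51, limma adjusted p = 0.0235). Yap1 measured 48.7, 43.2 and 44.2 FPKM in knockout and 45.5, 52.7 and 55.0 FPKM in wild-type libraries, so its groups overlapped (log2 change -0.16, limma adjusted p = 0.378); the sources used here do not name the floxed exons. Summed FPKM of nephron progenitor markers was 115 to 123 in knockout and 109 to 115 in wild-type libraries, and of podocyte markers 48.7 to 57.3 and 45.4 to 52.3, so the defining markers of kidney were present. Depth was approximated from steps in the lowest values at 12800000 to 15600000 fragments per library, on the scale of the deposited values. Wild-type library 3 stood apart: its nerve and chromaffin markers summed to 105 FPKM, against 6.05 to 8.42 FPKM in knockout libraries and 6.62 and 5.996 FPKM in wild-type libraries 1 and 2. Its proximal tubule markers summed to 56.3 FPKM, the lowest of the 6 libraries. Over 16 marker lists, the cortical stroma list held the only genes called, 2 lower. These lists were chosen with earlier results of these data known, so such counts are descriptions only.

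A few sequences show what sets these genes apart and what they share. The first set is coding sequence from GENCODE M21 transcripts (GRCm38) around the catalytic cysteine of the aldehyde dehydrogenases, whose codon is in capitals. Aldh1a7 is shown because it is the neighbour of Aldh1a1 on chromosome 19 and its nearest relative here.
Aldh1a1: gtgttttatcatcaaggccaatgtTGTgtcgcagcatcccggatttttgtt
Aldh1a2: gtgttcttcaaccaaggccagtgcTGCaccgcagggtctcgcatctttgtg
Aldh1a3: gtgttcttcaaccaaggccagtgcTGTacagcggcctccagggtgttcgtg
Aldh1a7: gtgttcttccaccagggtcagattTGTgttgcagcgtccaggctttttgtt

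Over the whole coding sequence, Aldh1a2 and Aldh1a3 were identical at 68.5% of aligned positions, Aldh1a1 and Aldh1a2 at 67.1%, and Aldh1a1 and Aldh1a3 at 66.9%. Aldh1a1 and Aldh1a7 were identical at 91.6%. Of the stretches of 31 bases in Aldh1a1 transcripts, 5.70% also occur in Aldh1a7, so the split of reads between those neighbours is uncertain. For Aldh1a3 the share found in any other gene was 2.26%, and for Aldh1a2 it was 0.

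The second set is the P box of the 3 receptors, the part of the first zinc finger that reads the half-site in DNA. Its codons are in capitals, in the same kind of GENCODE M21 coding sequence.
Rara: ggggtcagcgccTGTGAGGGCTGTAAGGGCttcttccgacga
Rarb: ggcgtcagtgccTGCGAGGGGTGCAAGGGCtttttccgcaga
Rarg: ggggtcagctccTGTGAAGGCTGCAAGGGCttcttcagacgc

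The 3 stretches code for the same P box, while the whole coding sequences were identical at 69.0% to 71.9% of aligned positions.

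The third set is a promoter, shown because Rarb is both a receptor and a known target of retinoic acid through a repeated half-site near an internal start. Promoters (250 bases before to 50 after a start, RefSeq, GRCm38.p6) were found for 8 of the 10 genes, 15 promoters in all; Aldh1a3 and Rdh10 had no entry. They were searched on both strands for 2 half-sites in a row, each spelt AGGTCA or else GGGTCA or else AGTTCA or else GGTTCA, with a gap of 1, 2 or 5 bases. The repeat with a gap of 5 was found in the Rarb promoter and in no other promoter of these genes, and 0.0974% of all 32851 promoters hold it. Repeats with a gap of 1 or 2 were found in 0 of the 15, against 0.222% and 0.268% of all promoters. The stretch below is chr14:16575507-16575535, minus strand. It lies within the annotated span of Rarb, near the RefSeq start of its shorter transcripts and far from the outermost start. The half-sites, in capitals, span positions -53 to -37 from that RefSeq start.
Rarb: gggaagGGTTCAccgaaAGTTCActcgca

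**Figure D1:**
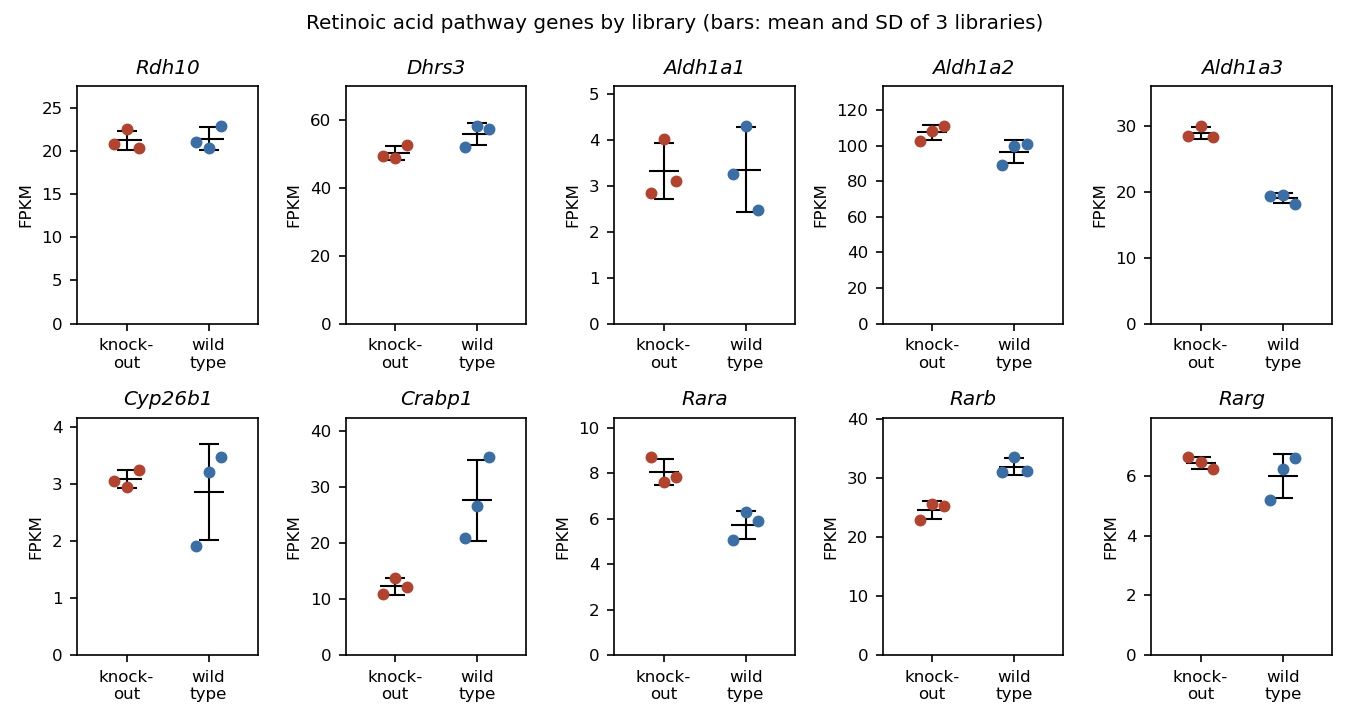
FPKM (y axis, from 0, a scale for each gene) of each of the 10 genes in knockout libraries (red, left) and wild-type libraries (blue, right); points are single libraries and bars the mean and SD of 3. The Aldh1a3 points lie at 28.4 to 30.1 FPKM in knockout and 18.2 to 19.5 FPKM in wild-type libraries, and the Crabp1 and Rarb points lie lower in knockout libraries.

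Among the 10 genes 1 was called by limma over all genes tested (Benjamini-Hochberg adjusted p under 0.05), and it was Aldh1a3, higher in knockout kidneys. There were 2 without wild-type library 1 or 3, the other being Crabp1, and 2 with all libraries scaled to the same sum, the other being Rarb. With replicate number added to the fit none was called. Of all 16899 genes tested, 0.734% were called. At an unadjusted p under 0.05 there were 6 of 10 genes, 3 higher (Aldh1a2, Aldh1a3, Rara) and 3 lower (Rarb, Dhrs3, Crabp1), against 16.1% of all genes. Libraries of the 2 genotypes did not overlap for 5 of the 10 (Aldh1a2, Aldh1a3 and Rara higher, Rarb and Crabp1 lower), against 24.3% of all genes. For each of these 5 the exact permutation p was 0.1, the smallest that 3 against 3 libraries allows. The median log2 change of the 10 genes was 0.05, and that of all genes tested was 0.00. The 10 genes were chosen with earlier results of these data known, so their counts are descriptions only.

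**Figure D2:**
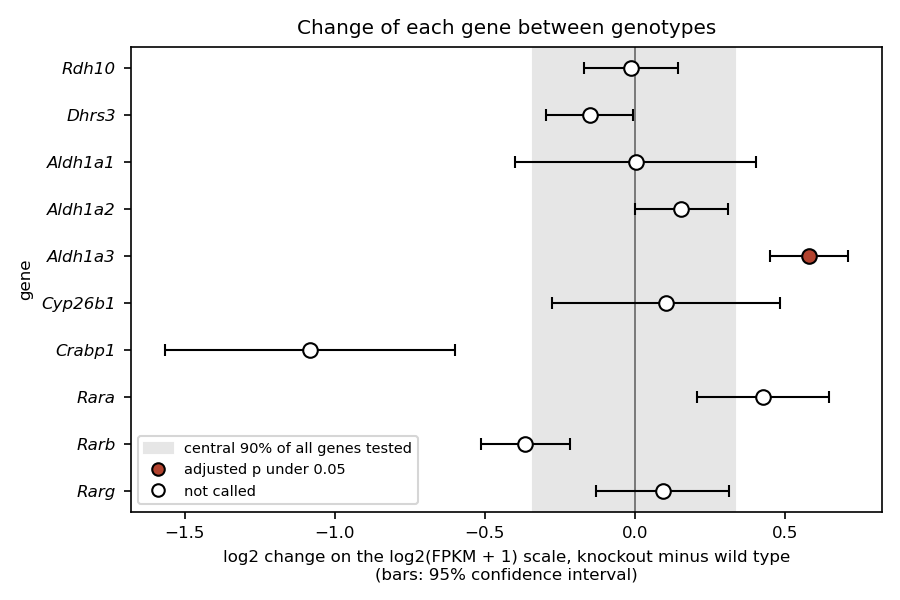
Log2 change of each gene between genotypes, knockout minus wild type, on the log2(FPKM + 1) scale (x axis), with its 95% confidence interval, not adjusted for the number of genes; the grey band holds the central 90% of all genes tested, from -0.34 to 0.33. Aldh1a3 (filled) is the called gene at 0.58, and Crabp1, Rara and Rarb also lie outside the band.

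FPKM is scaled to transcript length, so levels can be set side by side between genes. In knockout kidneys the order of mean FPKM was Aldh1a2 (108), Dhrs3 (50.2), Aldh1a3 (29.0), Rarb (24.5), Rdh10 (21.3), Crabp1 (12.3), Rara (8.06), Rarg (6.46), Aldh1a1 (3.32) and Cyp26b1 (3.08). In wild-type kidneys it was Aldh1a2 (96.7), Dhrs3 (55.9), Rarb (31.8), Crabp1 (27.6), Rdh10 (21.5), Aldh1a3 (19.1), Rarg (6.01), Rara (5.75), Aldh1a1 (3.35) and Cyp26b1 (2.86). Aldh1a3 thus stood at the third place in knockout kidneys and at the sixth in wild-type kidneys. In wild-type libraries the ranges of Rarb and Crabp1, of Crabp1 and Rdh10, of Rarg and Rara, and of Aldh1a1 and Cyp26b1 overlapped, and in knockout libraries those of Aldh1a1 and Cyp26b1 did. If each gene is taken at its longest transcript, these levels rest on about 78 to 150 fragments per library for Aldh1a1, 110 to 230 for Cyp26b1 and 2600 to 3900 for Aldh1a2.

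The enzymes at the retinaldehyde step came first. Rdh10 (chromosome 1, 16105774 to 16133734, GRCm38, plus strand) measured 20.9, 22.6 and 20.4 FPKM in knockout libraries, against 21.1, 20.3 and 23.0 FPKM in wild-type libraries. These values interleave, and the log2 change was -0.01 (95% confidence interval -0.17 to 0.15, limma adjusted p = 0.952). Dhrs3 (chromosome 4, 144892827 to 144928209, plus strand), whose product works in the opposite direction, measured 49.3, 48.8 and 52.7 FPKM in knockout libraries, against 52.1, 58.4 and 57.3 FPKM in wild-type libraries. Knockout library 3 overlapped wild-type library 1, and the log2 change of -0.15 (95% confidence interval -0.30 to -0.01) was not called (limma adjusted p = 0.298).

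The ALDH1A enzymes differed among themselves. Aldh1a3 (ENSMUSG00000015134, chromosome 7, 66390890 to 66427517, minus strand) measured 28.6, 30.1 and 28.4 FPKM in knockout libraries, against 19.4, 19.5 and 18.2 FPKM in wild-type libraries. All 3 knockout libraries lay above all 3 wild-type libraries, and the libraries of each genotype lay within 2 FPKM of each other. Aldh1a3 averaged 29.0 ± 0.924 FPKM in knockout and 19.1 ± 0.726 FPKM in wild-type kidneys (SD, n = 3 each), which is 152% of wild type. The log2 change was 0.58 with an SE of 0.06 (limma adjusted p = 0.00480). The call held without any 1 library (log2 0.55 to 0.60, limma adjusted p 0.0125 to 0.0335). It was lost with replicate number added to the fit (limma adjusted p = 0.0559).

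Aldh1a3 is known from the ureteric lineage, so markers of that lineage were set beside it. Of 11 collecting duct and urothelium markers 8 were tested and limma called 0. An unadjusted p under 0.05 was reached by 5 that were higher and 0 that were lower, against 16.1% of all genes. The median log2 change of the 8 was 0.21, with 2 of them below 0. The summed FPKM of all 11 was 290 to 312 in knockout and 248 to 270 in wild-type libraries, and none of the 11 was at 0 in every library. The mean log2 value of the 8 tested markers was 4.10, 4.11 and 4.10 in knockout libraries, against 4.08, 4.05 and 3.85 in wild-type libraries, so wild-type library 3 was the lowest. Taken relative to that mean in each library, Aldh1a3 lay at 0.81 ± 0.04 in knockout and 0.33 ± 0.08 in wild-type libraries (SD, n = 3 each). This relative difference was 0.47, against 0.58 for the plain values, and was chosen after the data were seen. It depends on which markers are averaged: Upk3a (log2 change -0.26) and Aqp2 (-0.21) lay below 0 and the other 6 above. The part of the ureteric lineage in the Aldh1a3 values was not tested.

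Aldh1a2 (chromosome 9, 71215789 to 71296243, plus strand), the enzyme gene with the highest level in both genotypes, measured 103, 109 and 111 FPKM in knockout libraries, against 89.1, 100.01 and 100.8 FPKM in wild-type libraries. The groups did not overlap, with 102.9 FPKM as the lowest knockout and 100.8 FPKM as the highest wild-type value. The log2 change of 0.16 (95% confidence interval 0.00 to 0.31) was not called (limma adjusted p = 0.310). Without wild-type library 1, its lowest library, it was 0.10 (limma adjusted p = 0.532). Aldh1a2 is also known from mesothelium. The summed mesothelium and capsule markers were 40.4 to 41.9 FPKM in knockout and 33.2 to 36.8 FPKM in wild-type libraries, with 0 of 7 tested markers called. That difference lay in Krt19 (mean 20.2 against 16.7 FPKM in wild type) and Rspo1 (10.5 against 7.08 FPKM), so the sums say little about the other markers. Upk1b was lower (log2 change -0.35), the groups of the others overlapped, and the list median was 0.11. The sums of cortical stroma markers went the other way, at 301 to 315 FPKM in knockout and 338 to 348 FPKM in wild-type libraries, with 2 of 10 called lower. The part of either cell type in the Aldh1a2 values was not tested.

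Aldh1a1 (chromosome 19, 20492715 to 20643465, plus strand) measured 2.84, 4.03 and 3.10 FPKM in knockout libraries, against 3.27, 4.31 and 2.47 FPKM in wild-type libraries. The groups overlapped throughout, with a log2 change of 0.00 and a 95% confidence interval of -0.40 to 0.41 (limma adjusted p = 0.994). Its near copy Aldh1a7 measured 3.92, 4.43 and 4.87 FPKM in knockout libraries, against 3.22, 4.08 and 2.95 FPKM in wild-type libraries (log2 change 0.30, limma adjusted p = 0.294).

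The sum of the 3 ALDH1A genes was 134, 143 and 143 FPKM in knockout libraries, against 112, 124 and 122 FPKM in wild-type libraries. Of this sum Aldh1a3 made up 21.3%, 21.1% and 19.9% in knockout libraries, against 17.4%, 15.8% and 14.99% in wild-type libraries. Aldh1a2 made up 76.1% to 77.9% in knockout and 79.7% to 83.0% in wild-type libraries. These shares do not overlap between genotypes; they are descriptions, with no test.

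**Figure D3:**
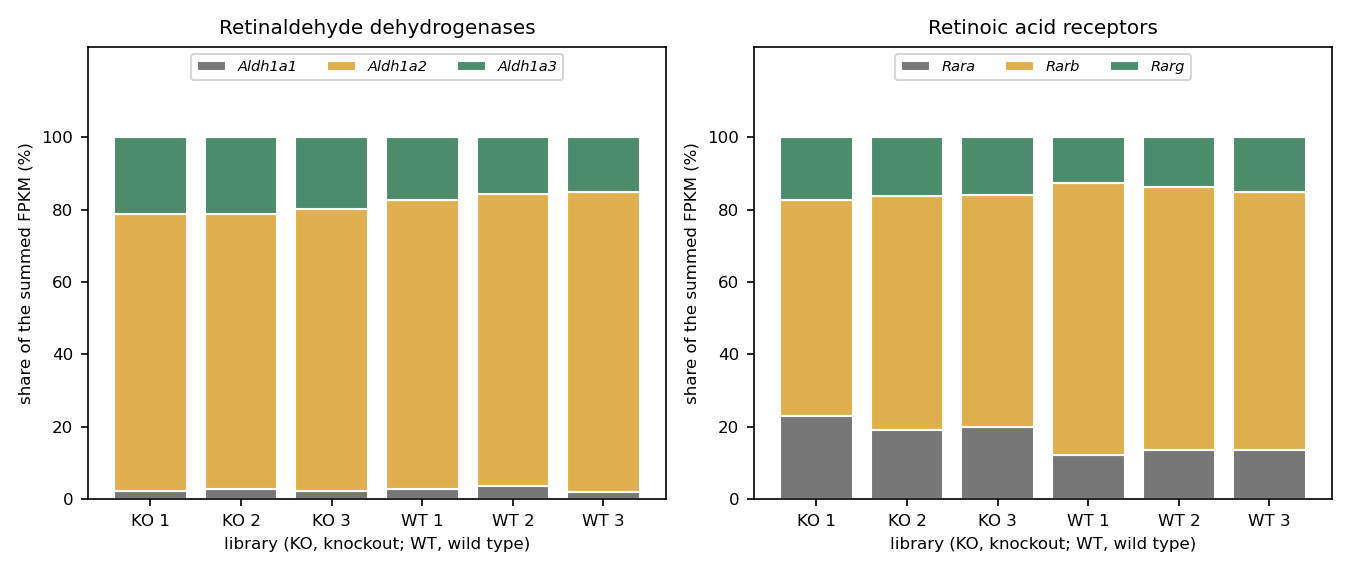
Share of the summed FPKM (y axis, %) of the 3 retinaldehyde dehydrogenase genes (left) and of the 3 receptor genes (right) in each library, knockout libraries left of wild-type libraries. The Aldh1a3 share lies at 19.9% to 21.3% in knockout and 14.99% to 17.4% in wild-type libraries, and the Rara share at 19.2% to 22.9% and 12.3% to 13.6%.

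Degradation and binding of retinoic acid were represented by Cyp26b1 and Crabp1. Cyp26b1 (chromosome 6, 84571414 to 84593908, minus strand) measured 3.05, 2.94 and 3.25 FPKM in knockout libraries, against 1.90, 3.20 and 3.47 FPKM in wild-type libraries. Wild-type library 1 was the lowest of all and wild-type library 3 the highest, with a log2 change of 0.11 (95% confidence interval -0.28 to 0.49, limma adjusted p = 0.787). Without wild-type library 1 it was -0.09, and without wild-type libraries 2 or 3 it was 0.18 or 0.22.

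Crabp1 (chromosome 9, 54764748 to 54773110, plus strand) measured 10.8, 13.8 and 12.2 FPKM in knockout libraries, against 20.9, 26.5 and 35.3 FPKM in wild-type libraries. Every knockout library lay below every wild-type library, and the wild-type libraries were spread widely. Crabp1 averaged 12.3 ± 1.49 FPKM in knockout and 27.6 ± 7.28 FPKM in wild-type kidneys (SD, n = 3 each), 44.5% of wild type. The log2 change of -1.08 (SE 0.20) was the largest in size among the 10 genes, and was not called (limma adjusted p = 0.0968). The highest value was in wild-type library 3, the library with raised nerve and chromaffin markers. Without that library the log2 change was -0.89 and called (limma adjusted p = 0.0426), and without wild-type library 1 it was -1.26 and called (limma adjusted p = 0.0421). Over all alternatives the limma adjusted p lay between 0.0421 and 0.310.

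Crabp2, the other cytosolic binding protein of this pair, measured 30.7, 39.5 and 37.2 FPKM in knockout libraries, against 34.0, 35.9 and 48.6 FPKM in wild-type libraries (log2 change -0.13, 95% confidence interval -0.51 to 0.25, limma adjusted p = 0.725). The ratio of Crabp2 to Crabp1 was 2.84 to 3.06 in knockout and 1.35 to 1.63 in wild-type libraries. Medullary stroma markers summed to 415 to 444.2 FPKM in knockout and 444.8 to 519 FPKM in wild-type libraries. Most of each sum was Cdkn1c, at 306 to 334 FPKM in knockout and 276 to 360 FPKM in wild-type libraries (log2 change -0.04). The sums thus say little about the other markers. Of 8 tested markers 7 lay below 0, with a median log2 change of -0.24. Limma called 0 of them, and 4 lower and 1 higher reached an unadjusted p under 0.05, against 16.1% of all genes. Their part in the Crabp1 values was not tested.

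The receptors lay on different sides of 0. Rara (chromosome 11, 98927818 to 98974942, plus strand) measured 8.72, 7.60 and 7.86 FPKM in knockout libraries, against 5.07, 6.28 and 5.89 FPKM in wild-type libraries. All knockout libraries lay above all wild-type libraries. The mean was 140% of wild type, and the log2 change of 0.43 (SE 0.10, 95% confidence interval 0.21 to 0.65) was not called (limma adjusted p = 0.113).

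Rarb (chromosome 14, 16430839 to 16819156, minus strand) measured 22.8, 25.6 and 25.2 FPKM in knockout libraries, against 30.9, 33.5 and 31.1 FPKM in wild-type libraries. No knockout value reached the lowest wild-type value. The mean was 77.0% of wild type, and the log2 change of -0.36 (SE 0.06, 95% confidence interval -0.51 to -0.21) was not called (limma adjusted p = 0.0611). With all libraries scaled to the same sum it was called (log2 -0.38, limma adjusted p = 0.0295). Exons of Rarb overlap those of Top2b, a topoisomerase gene on the opposite strand, and 32.1% of the stretches of 31 bases in Rarb transcripts also occur in Top2b. Top2b measured 87.6, 96.4 and 97.2 FPKM in knockout libraries, against 100.98, 104 and 104 FPKM in wild-type libraries (log2 change -0.14, limma adjusted p = 0.307). The sources used here do not say whether quantification used strand, and the part of Top2b reads in the Rarb values was not tested.

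Rarg (chromosome 15, 102234938 to 102257517, minus strand) measured 6.64, 6.48 and 6.24 FPKM in knockout libraries, against 5.19, 6.25 and 6.60 FPKM in wild-type libraries. These groups overlapped (log2 change 0.09, 95% confidence interval -0.13 to 0.32, limma adjusted p = 0.665). Without wild-type library 1 the log2 change was 0.01, and without wild-type library 3 it was 0.15. The sum of the 3 receptor genes was 38.2, 39.7 and 39.3 FPKM in knockout libraries, against 41.2, 46.0 and 43.6 FPKM in wild-type libraries. Rarb was the most abundant receptor in every library. Its share of the sum was 59.7% to 64.5% in knockout and 71.3% to 75.1% in wild-type libraries, and the ratio of Rarb to Rara was 2.61, 3.36 and 3.20 in knockout libraries, against 6.09, 5.33 and 5.28 in wild-type libraries.

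The retinoid X receptors, partners of these receptors, were in a list of 12 receptors and co-regulators, all of which were tested. Limma called 0, and at an unadjusted p under 0.05 there were 3 higher and 0 lower, against 16.1% of all genes. Rxrb measured 19.7, 19.2 and 18.6 FPKM in knockout libraries, against 14.1, 15.2 and 15.8 FPKM in wild-type libraries (log2 change 0.33, limma adjusted p = 0.0723). Rxra measured 15.3, 11.8 and 12.1 FPKM in knockout libraries, against 7.85, 9.88 and 10.6 FPKM in wild-type libraries (log2 change 0.43, limma adjusted p = 0.194). For both genes the groups did not overlap, as for 24.3% of all genes. Ppard, a nuclear receptor that also takes retinoic acid delivered by FABP5, had a log2 change of 0.31 (limma adjusted p = 0.283), Trim24, a co-regulator of retinoic acid receptors, one of -0.11 (limma adjusted p = 0.3999), and the list median was 0.01.

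**Figure D4:**
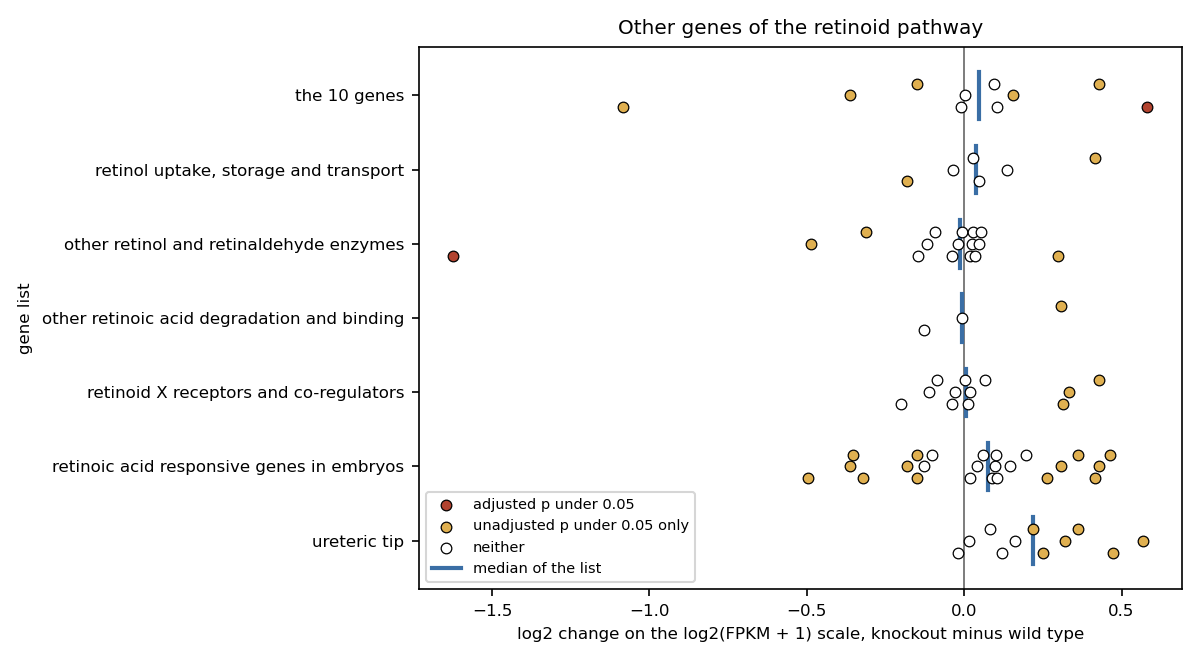
Log2 change, knockout minus wild type, on the log2(FPKM + 1) scale (x axis), of every tested gene in each list of the pathway (y axis); red points are called, yellow points have an unadjusted p under 0.05 only, and blue bars are list medians. Aldh1a3 at 0.58 and Aox3 at -1.62 are the called genes, and the ureteric tip list has its median at 0.22.

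Upstream of synthesis, 11 of 12 genes of retinol uptake, storage and transport were in the table, 6 were tested and limma called 0. At an unadjusted p under 0.05 there were 1 higher and 1 lower, against 16.1% of all genes. Stra6, the cell-surface receptor that takes up retinol from its carrier in blood, measured 8.33, 8.68 and 7.92 FPKM in knockout libraries, against 5.15, 5.84 and 7.05 FPKM in wild-type libraries. These groups did not overlap, as for 24.3% of all genes (log2 change 0.42, limma adjusted p = 0.153). Rbp4, the carrier of retinol in blood, averaged 1.03 FPKM in knockout and 0.864 FPKM in wild-type kidneys (log2 change 0.14, limma adjusted p = 0.773), and Dgat1, an acyltransferase that can esterify retinol, 21.0 and 20.4 FPKM (log2 change 0.05, limma adjusted p = 0.773).

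Of 23 other enzymes acting on retinol or retinaldehyde, 16 were tested and 1 was called by limma, Aox3, lower in knockout kidneys. This list, like the others, was chosen with earlier results of these data known. At an unadjusted p under 0.05 there were 1 higher and 3 lower, against 16.1% of all genes, and the median log2 change was -0.01. Aox3, an aldehyde oxidase whose family can oxidise retinaldehyde, measured 0.361, 0.208 and 0.322 FPKM in knockout libraries, against 3.29, 2.97 and 2.72 FPKM in wild-type libraries (log2 change -1.62, limma adjusted p = 0.00138). Its knockout mean of 0.297 FPKM lay under the filter of 0.5 FPKM, so Aox3 was tested only through its wild-type values. The size of its log2 change depends on the constant added to FPKM: with 0.1 in place of 1 it was -2.98. Adh1, an alcohol dehydrogenase that can oxidise retinol, measured 7.06, 8.36 and 7.92 FPKM in knockout libraries, against 13.1, 11.6 and 9.38 FPKM in wild-type libraries. Its groups did not overlap, as for 24.3% of all genes, with a log2 change of -0.49 that was not called (limma adjusted p = 0.144). Rdh9 had a log2 change of -0.31 (limma adjusted p = 0.245).

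Among 5 other genes of degradation and binding 3 were tested and limma called 0. At an unadjusted p under 0.05 there were 1 higher and 0 lower, against 16.1% of all genes. Cyp26a1, which also degrades retinoic acid, measured 0.754, 0.814 and 0.599 FPKM in knockout libraries, against 0.546, 0.286 and 0.347 FPKM in wild-type libraries (log2 change 0.31, limma adjusted p = 0.258). Both genotypes were thus near the filter of 0.5 FPKM. Fabp5, which carries retinoic acid among other lipids, averaged 181 ± 9.65 FPKM in knockout and 181 ± 5.12 FPKM in wild-type kidneys (SD, n = 3 each; log2 change -0.01, limma adjusted p = 0.9698).

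Genes known to respond to retinoic acid in embryos did not move in 1 direction. Of 27 listed, which include Rarb, Dhrs3 and Cyp26b1, 24 were tested and limma called 0. At an unadjusted p under 0.05 there were 6 higher and 7 lower, against 16.1% of all genes, and the median log2 change was 0.08. On the lower side, Rarres2, named for its response to a retinoid, measured 19.7, 20.2 and 19.4 FPKM in knockout libraries, against 32.8, 25.9 and 26.6 FPKM in wild-type libraries (log2 change -0.50, limma adjusted p = 0.0658). Tgm2, a transglutaminase induced by retinoic acid in several cell types, had a log2 change of -0.32 (limma adjusted p = 0.116). On the higher side, Zfp503, a zinc finger gene, measured 12.3, 10.9 and 11.3 FPKM in knockout libraries, against 7.45, 7.80 and 9.71 FPKM in wild-type libraries (log2 change 0.43, limma adjusted p = 0.135). Rarres2 was called without wild-type library 1 (log2 -0.39, limma adjusted p = 0.0439) and Zfp503 without wild-type library 3 (log2 0.53, limma adjusted p = 0.0439).

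The ureteric tip, where Ret acts, is the site where retinoic acid from the stroma is known to be read. Ret, named here because the background turns on it and after its value was seen, measured 8.15, 7.79 and 7.08 FPKM in knockout libraries, against 4.97, 5.56 and 6.82 FPKM in wild-type libraries. The groups did not overlap, as for 24.3% of all genes, and the log2 change of 0.36 was not called (limma adjusted p = 0.201). All 11 genes of the ureteric tip list were tested and limma called 0. The list also holds Gdnf, which encodes the ligand of Ret, so it is not limited to genes of tip cells. In this list 10 lay above 0 and Gdnf below (log2 change -0.02), with a median log2 change of 0.22. At an unadjusted p under 0.05 there were 6 higher and 0 lower, against 16.1% of all genes in either direction. Spry1, an inhibitor of receptor tyrosine kinase signalling, had a log2 change of 0.57 (limma adjusted p = 0.0782). Etv5 (log2 change 0.32, limma adjusted p = 0.154) and Etv4 (log2 change 0.22, limma adjusted p = 0.178), transcription factors downstream of Ret, followed.

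The genes most like Aldh1a3 and Rarb across the libraries were sought among the 11082 tested genes whose mean reached 5 FPKM, by Pearson's r of log2(FPKM + 1) over 6 libraries. For Aldh1a3 they were Eif4b, Ing4, Padi2, Hdhd5 and Chchd10, with r from 0.989 to 0.994. Of these Padi2, a peptidylarginine deiminase, was called higher (log2 change 0.49, limma adjusted p = 0.0235), and Eif4b, an initiation factor of translation, had a log2 change of 0.06. For Rarb they were Cul3, Pfn2, Stbd1, Ireb2 and Flrt2, with r from 0.990 to 0.995, of which Stbd1, a glycogen-binding protein, was called lower (log2 change -0.54, limma adjusted p = 0.0410). All these points share their libraries and the difference between genotypes, so r describes a common profile and nothing more.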

How the data were processed

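The submitters' processing notes name bcl2fastq 2.17.1.14, Salmon and GRCm38 (mm10); Salmon's version, the annotation and the use of strand were not given in the sources used here. FPKM values were deposited in 1 table. The median log2 ratio of a library to the mean of each gene was 0.0038 in every library. Summed FPKM ran from 652823 to 707570, so libraries had been scaled to a common median ratio and not to equal sums. No pair among 15 library pairs was identical.

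Since FPKM is no count, count models were left aside. Values of genes averaging 0.5 FPKM or more were transformed as log2(FPKM + 1) and fitted with limma 3.58.1 (R 4.3.3), with genotype as the only term, trend and robust moderation and Benjamini-Hochberg adjustment over all 16899 genes tested. Log2 changes are knockout minus wild type and understate the change of low genes. A percentage of wild type divides the mean FPKM of both groups. The procedure was tested on simulated data. For depth, values of genes with 1 transcript of at least 2 kb were matched to whole fragments, an approximation that carries the scaling between libraries.

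The members and the 6 pathway and 16 marker lists were chosen with earlier results of these data known. Named genes are the 10 members and, of each pathway list, called genes and up to 4 with the smallest p. Some of these are not reported here. Likeness was taken for the 2 members with the smallest p. Symbols came from GENCODE M21 identifiers (24469 matched). Sequences were read with Biopython 1.88. The alternatives were another pseudocount (0.1), filter (none, or 1 FPKM), scaling, moderation, a replicate block and leaving out each library.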

Additional observations from a re-analysis of the deposited data

How the results depend on the processing

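Of 130 values of the 10 members under 13 alternatives, 119 kept their direction and their side of the threshold, as did 276 of 284 values of 22 other genes chosen by the naming rule. The number of genes called, 124, was 75 without trend and robust moderation, 32 with the replicate block, and 52 to 147 when 1 library was left out. Members called, 1, were 2 with equal sums (Aldh1a3 and Rarb), 0 with the replicate block, and 1 to 2 when 1 library was left out; the added member was Crabp1. Aldh1a3 had a limma adjusted p of 0.0559 with the replicate block. The labels do not say whether replicate numbers pair the samples. Deviations of libraries with the same number correlated at 0.02, -0.04 and 0.05, and only knockout library 3 correlated best with its own number. So few libraries cannot decide whether the samples were paired. Values near 0 changed sign: Aldh1a1 was -0.011 with equal sums and lay between -0.15 and 0.16 when 1 library was left out, Cyp26b1 between -0.087 and 0.22, Rdh10 between -0.051 and 0.037, Crabp2 between -0.22 and 0.027, Rbp4 between -0.012 and 0.33, and Fabp5 between -0.045 and 0.031, with 0.040 under quantile normalization. The causes were not tested. By fragments per library, Aldh1a1 and Cyp26b1 had the lowest minimum of the 10 members, and how far depth limits each gene was not tested.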
